A study of Mus musculus with 24 samples.

Results

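The stefin A genes described here are Stfa1, Stfa2, Stfa2l1, Stfa3, Gm5483 and BC100530, 6 of the 23420 genes in each of 4 tables of mouse lung RNA-Seq. They were matched by symbol, all 6 were present in every table, and they had been selected on the measured mutant over control values of these same tables. Their differences between genotypes are therefore given as a description. Counts of members called by a test across all genes are printed only beside the share or number of all genes called, and nothing is supported by them. The tables hold left lung lobes from Sox9Cre/+; Vangl2f/f and Sox9Cre/+; Ror2f/f mice and from their own controls, whose genotype is labelled WT, at postnatal day (P) 2 and P5. Each of the 8 groups held 3 lungs, 24 in all, and was formed by sample title. The titles of the controls in the Vangl2 tables name Vangl1 as well as Vangl2. Genotype entries of the Vangl2 P5 and Ror2 P2 mutants name the other gene and were not followed. Both mutants carry a floxed allele (of Vangl2, a core planar cell polarity gene, or of Ror2, a receptor tyrosine kinase) and a Cre expressed from the Sox9 locus, which deletes the gene in the distal lung epithelium but is active in other tissues as well. All groups shared tissue and preparation. The 3 lungs of a group are separate samples by their labels, which do not name the animals, so p-values measure the spread between these samples, which may in part be technical.

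Stefins are small cytosolic proteins of the cystatin superfamily that bind and block papain-like cysteine proteases, the lysosomal cathepsins among them. An N-terminal trunk and a pair of hairpin loops form the wedge that enters the protease's active site, and the first loop carries a short conserved motif. The human genome has a lone stefin A gene, whereas the mouse has a tandem array of paralogs, whose transcripts are known from neutrophils and other myeloid cells and from stratified epithelium.

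The 6 genes lie on chromosome 16 within 298582 bases, from 36156811 to 36455392 in GRCm38, the build that the name mm10 also denotes. Stfa2l1, Gm5483 and Stfa1 read along the plus strand, BC100530, Stfa2 and Stfa3 along the minus strand, and every one is protein-coding with 3 exons in the GENCODE transcript linked to RefSeq. The coding sequences of the 15 pairs of members were 76.87% to 97.96% identical, with a median of 81.29%. The closest pairs were Stfa1 with BC100530 (97.96%) and Stfa2 with Stfa2l1 (96.47%). The stretches below, 75 bases of coding sequence each, surround the 15 bases in capitals that encode the first hairpin loop. They are shown because the loop is among the parts that touch the protease. The runs of shared letters also show how a short read could fit more than 1 member.
Stfa1: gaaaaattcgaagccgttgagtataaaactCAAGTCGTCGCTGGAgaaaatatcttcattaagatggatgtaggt
BC100530: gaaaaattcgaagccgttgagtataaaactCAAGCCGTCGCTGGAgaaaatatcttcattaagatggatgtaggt
Gm5483: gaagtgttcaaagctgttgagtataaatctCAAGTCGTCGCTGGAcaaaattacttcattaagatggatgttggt
Stfa3: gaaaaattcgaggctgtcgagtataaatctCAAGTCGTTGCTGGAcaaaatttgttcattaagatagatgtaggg
Stfa2: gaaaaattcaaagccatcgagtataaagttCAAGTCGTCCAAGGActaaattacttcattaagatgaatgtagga
Stfa2l1: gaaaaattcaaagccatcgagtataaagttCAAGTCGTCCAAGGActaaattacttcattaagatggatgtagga

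The loop bases lie in exon 2 of each gene and the stretches run on into exon 3. In Stfa1 the loop is at chr16:36280535-36280549, in BC100530 at chr16:36364230-36364244 and in Gm5483 at chr16:36186433-36186447. In Stfa3 it is at chr16:36452169-36452183, in Stfa2 at chr16:36405148-36405162 and in Stfa2l1 at chr16:36160015-36160029. The loop of Stfa1 matched that of Gm5483 at all 15 bases, the loops of Stfa3 and BC100530 matched it at 14, and those of Stfa2 and Stfa2l1 at 12. Over whole transcripts, 131 windows of 50 bases were shared between Stfa1 and BC100530, which was 23.1% of the windows of Stfa1. Another 62 were shared between Stfa2 and Stfa2l1, and neither Stfa3 nor Gm5483 shared a window with another member. Gm5483 shared 35.6% of its windows with cluster genes that are not members. How reads that fit several genes were assigned is not given in the sources used here, so single members of a pair are less certain than the sum of all 6, called the stefin A sum below.

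The sequence just before the RefSeq start was also alike. The 110 bases upstream of each RefSeq start are given on the gene's own strand (RefSeq, GRCm38.p6, which names Gm5483 as Cstdc4 and BC100530 as Cstdc5). GENCODE places the starts of Stfa1, BC100530 and Stfa2 further upstream, at 36276951, 36367748 and 36408457. By that annotation the stretches of Stfa1 and BC100530 lie wholly, and that of Stfa2 mostly, inside the gene. Capitals mark the 3 runs of at least 10 bases that all 6 share, CACACTCATT, AGAGGAGGAG and ACCTTTAAAACC, so their presence in the members is how they were found. The set is shown because the letters are shared by all 6, Stfa1 included. In the values below 5 of the 6 genes, all but Stfa1, deviated together from lung to lung. A link between these letters and the levels was not tested.
Stfa1 (chr16:36277038-36277147, plus): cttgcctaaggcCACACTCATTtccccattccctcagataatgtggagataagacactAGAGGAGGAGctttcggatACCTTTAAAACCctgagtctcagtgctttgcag
BC100530 (chr16:36367571-36367680, minus): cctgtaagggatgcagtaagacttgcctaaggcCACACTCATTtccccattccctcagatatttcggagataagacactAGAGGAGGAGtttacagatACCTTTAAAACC
Gm5483 (chr16:36184102-36184211, plus): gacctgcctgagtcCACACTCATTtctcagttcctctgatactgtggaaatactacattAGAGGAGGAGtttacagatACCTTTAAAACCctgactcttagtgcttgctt
Stfa3 (chr16:36455393-36455502, minus): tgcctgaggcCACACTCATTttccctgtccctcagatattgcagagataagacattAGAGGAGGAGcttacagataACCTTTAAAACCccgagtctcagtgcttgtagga
Stfa2 (chr16:36408364-36408473, minus): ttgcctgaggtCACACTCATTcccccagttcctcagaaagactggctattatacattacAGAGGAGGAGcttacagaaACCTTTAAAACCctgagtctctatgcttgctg
Stfa2l1 (chr16:36156701-36156810, plus): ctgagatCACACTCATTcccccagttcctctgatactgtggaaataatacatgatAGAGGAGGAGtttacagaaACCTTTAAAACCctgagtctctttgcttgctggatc

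All searches covered both strands of the 250 bases before each start, in 32851 RefSeq promoters. ACCTTTAAAACC was found in 11 (0.0335%), of which 9 belong to genes of this array, CACACTCATT in 0.0822% and AGAGGAGGAG in 0.816%. GAGGAA, a core of the PU.1 motif, was in 6 of 6 members and in 23.25% of promoters, and none of its matches in the members overlapped the shared runs. TTGCNNAA, a C/EBP form, was in 2 members (Stfa1 and BC100530) and in 9.56% of promoters, and a loose NF-kB form (3 G, 5 of any base, 2 C) was in 3 members and in 45.8%. TATAAA, an exact form of the TATA box, was in no member and in 12.4% of promoters. Other TATA-like forms were not searched. TGANTCA, an AP-1 form, was in no member and in 6.75% of promoters. These matches describe the letters only.

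The lungs had 13823693 to 21546673 reads on genes, recovered from the size-factor steps of the deposited values. The lowest total was that of Ror2 P5 control replicate 1, in which 48.7% of genes were at 0. That lung had no reads on expressed genes of chromosomes 6, 7, 8, 9 and X and none on 71.7% of those of chromosome 5, while chromosome 16 was covered. The targeted gene was measured in whole lobes, where cells outside the Cre domain add to it. Vangl2 was 292 to 369 normalized counts in the P5 controls and 148 to 169.5 in the P5 Vangl2 mutants, lower in each mutant than in each control (limma, adjusted p = 0.0604, and 0.0194 with replicate number as a block). At P2 it was 248.6 to 302 in controls and 173 to 241 in mutants, and Ror2 in its own 2 tables overlapped between genotypes (349 to 479 in mutants and 451 to 581 in controls at P2, 362 to 521 and 368 to 597 at P5).

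The stefin A sum was higher in the P5 Vangl2 mutants than in their controls in every lung. It was 1492, 742 and 1026 normalized counts in P5 control replicates 1, 2 and 3 and 4824, 3947 and 6243 in mutant replicates 1, 2 and 3. The means were 1086 ± 379 and 5005 ± 1158 (SD, n = 3), and the mutants were 2.24 ± 0.35 (SE) higher on the log2 scale, or 4.71-fold. With the replicate number as a block, a pairing that the labels do not give, the SE was 0.28. In whole-lobe RNA, fewer or more cells of a type and less or more RNA per cell cannot be told apart.

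At P2 the sum was 3159, 1720.4 and 2605 in Vangl2 controls and 3018, 5414 and 8533 in the mutants. Mutant replicate 1 lay below control replicate 1, so the groups overlapped. The log2 difference was 1.10 ± 0.51 (SE), with group means of 2495 ± 725 and 5655 ± 2765 (SD, n = 3).

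In the Ror2 tables no separation between genotypes was seen. At P2 the sum was 1536, 2279 and 9430 in controls and 2035, 2047 and 2955 in mutants, a log2 difference of -0.47 ± 0.81 (SE). Control replicate 3 alone stood far above the rest, and without it the difference was 0.30 ± 0.31. At P5 the sum was 867, 682 and 507 in controls and 1613, 935 and 657 in mutants, a log2 difference of 0.57 ± 0.44 (SE). Mutant replicate 3 was below the 2 highest controls. In that table the median over all genes tested was itself 0.18, and it was 0.04 when the lungs were rescaled to the same total. Both medians include the genes without reads in control replicate 1, the lung that lacks whole chromosomes. Chromosome 16, which holds the stefin A genes, was covered in that lung, so neither median is a background for them. The part of that lung in the medians was not tested.

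**Figure D1:**
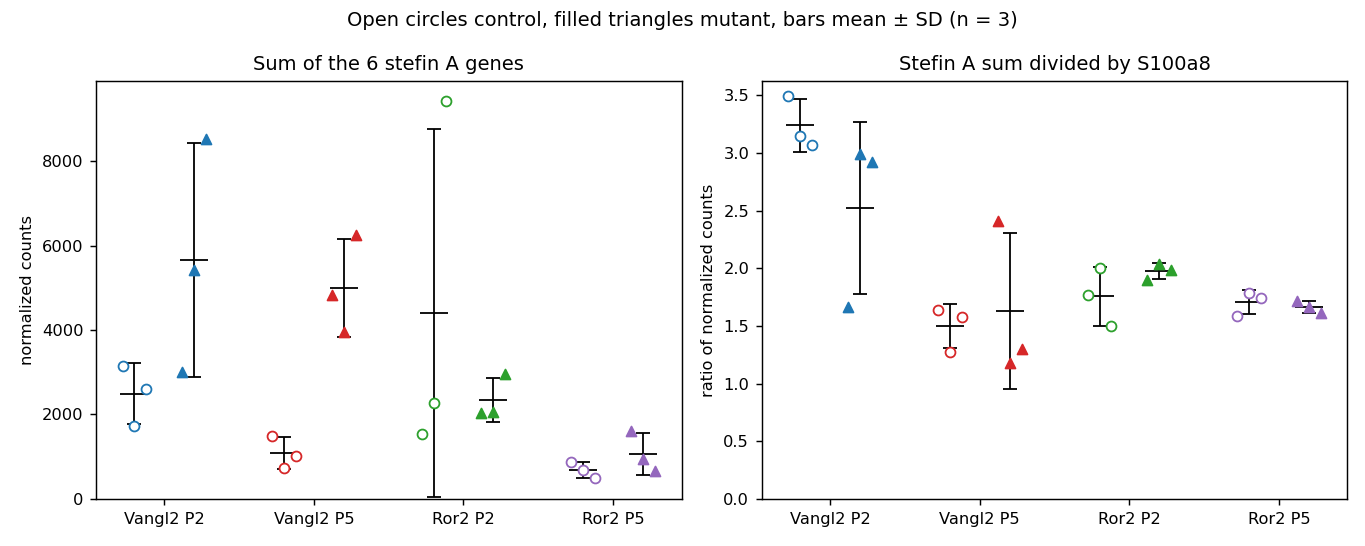
Left, the stefin A sum in each lung in normalized counts, and right, that sum divided by the normalized count of S100a8, for the 4 tables on the x axis. Open circles are control lungs, filled triangles mutant lungs, and bars show the mean ± SD (n = 3); the 3 Vangl2 P5 mutants sit at 3947 to 6243 against 742 to 1492 in their controls, and 1 Ror2 P2 control lung reaches 9430.

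Taken gene by gene, 5 of the 6 members did not overlap between genotypes in the Vangl2 P5 table, with every mutant above every control, as in 13.2% of the 17410 genes tested there. Stfa2, a close copy of Stfa2l1, was 338, 159.9 and 229.8 normalized counts in controls and 1086, 922 and 1552 in mutants. Stfa2l1 was 405, 203 and 264 in controls and 1049, 818 and 1683 in mutants. The log2 fold changes were 2.32 ± 0.30 for Stfa2 and 2.01 ± 0.32 (SE) for Stfa2l1.

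Stfa3 and Gm5483, the members that share no 50-base window with another, had the narrowest errors. Stfa3 was 136, 122 and 131 in controls and 458, 644 and 709 in mutants, and the log2 fold change was 2.19 ± 0.20. Gm5483 was 186, 103 and 136 in controls and 803, 705 and 831 in mutants, and the log2 fold change was 2.49 ± 0.23. BC100530 was 422, 147 and 146 in controls and 1409, 842 and 984 in mutants, and the log2 fold change was 2.33 ± 0.41. Its control replicate 1 was far above the other two. Stfa1 was an exception and is described separately below.

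Under limma 4 members (Gm5483, Stfa2, Stfa2l1 and Stfa3) had an adjusted p under 0.05 and a higher level in the P5 Vangl2 mutants, beside 0.534% of all genes tested. With the replicate number as a block all 6 did, beside 952 of the 17410 genes tested. Since the members were chosen on this contrast, these counts say nothing further about them. Without mutant replicate 3 no member was called, and 1 was without control replicate 2 or mutant replicate 1. There were 2 without control replicate 3, 3 without mutant replicate 2 and 5 without control replicate 1. These fits called 0 to 54 genes in all. On recovered reads edgeR and DESeq2 gave 3 and 5 members, beside 67 and 843 genes called higher.

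At P2 all 6 members had log2 fold changes above 0 in the Vangl2 table, of 0.78 to 1.37 against 1.81 to 2.49 at P5, and the difference between the ages was not tested. Stfa2 was 379, 266 and 422 normalized counts in controls and 523, 954 and 1469 in mutants, and Stfa2l1 was 605, 319 and 479 in controls and 819, 1064 and 1764 in mutants. Gm5483 was 507, 337 and 459.7 in controls and 527, 921 and 1637 in mutants. These 3 genes did not overlap between genotypes (14.6% of all genes tested had all 3 mutants above all 3 controls), although Gm5483 in mutant replicate 1 was barely above the highest control. Their log2 fold changes were 1.37 ± 0.35, 1.35 ± 0.31 and 1.11 ± 0.37 (SE).

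Stfa3 and BC100530 overlapped at P2 through mutant replicate 1, and Stfa1 through control replicate 1. Stfa3 was 229, 145 and 222 in controls and 186, 479.9 and 573 in mutants, with a log2 fold change of 0.93 ± 0.41. BC100530 was 575, 396 and 677 in controls and 465, 1307 and 1958 in mutants, with a log2 fold change of 0.98 ± 0.48. In mutant replicate 1 Stfa3 and BC100530 were within the control range while Stfa2 and Stfa2l1 in that lung were above all controls. No member had an adjusted p under 0.05 by limma, beside 1.5% of all genes called higher and 2.09% called lower. By edgeR none did, beside 259 genes called higher. With limma 3 members had an unadjusted p under 0.05, as did 3921 of the 17448 genes tested. DESeq2 gave 5 members, beside 1081 genes called higher. Without mutant replicate 1 limma gave 5 members beside 536 genes called, and without mutant replicate 3 it gave 1 beside 2333.

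**Figure D2:**
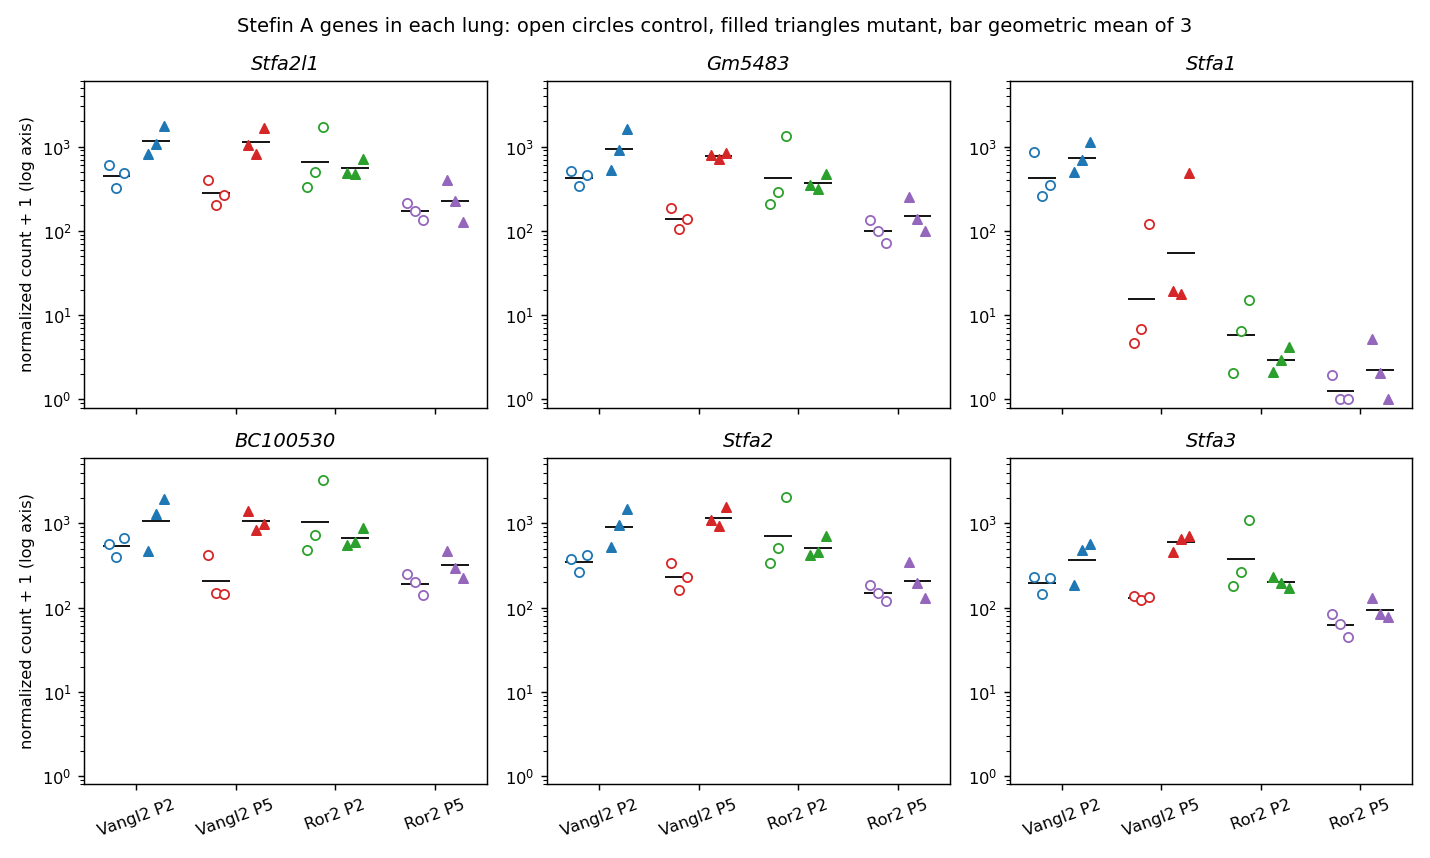
Normalized count + 1 on a log axis for each stefin A gene (panels) in each of the 24 lungs, grouped by table on the x axis. Open circles are control lungs, filled triangles mutant lungs and black bars the geometric mean of 3; in Vangl2 P5 the triangles lie above the circles in 5 panels, and Stfa1 runs from 1132 in a Vangl2 P2 mutant to 0 in 3 Ror2 P5 lungs.

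In the Ror2 P2 table all 6 members had a log2 fold change below 0 (-0.98 to -0.21, SE 0.56 to 0.75), and all 6 overlapped between genotypes. Control replicate 3 was the highest lung of the table for each of them. BC100530 was 482, 721 and 3241 normalized counts in controls and 547, 606 and 892 in mutants. Stfa3 was 180.5, 263 and 1099 in controls and 232, 194 and 172 in mutants, and it was the one abundant member that did not rank higher in mutant replicate 3 than in the other mutants. Without control replicate 3 the log2 fold change was 0.18 for BC100530, 0.60 for Gm5483, 0.31 for Stfa2 and 0.44 for Stfa2l1, so the direction of these 4 rested on that lung. No member was called by limma, edgeR or DESeq2, and none had an unadjusted p under 0.05. Of all genes limma called 0% higher and DESeq2 called 477 higher, and 3380 of 17541 had an unadjusted p under 0.05 by limma. All 3 mutants were above all 3 controls for no member and for 13.4% of genes.

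In the Ror2 lungs at P5 5 members were tested, with log2 fold changes of 0.41 to 0.72 (SE 0.37 to 0.48), and all overlapped. The median over all genes was 0.18, including the genes without reads in control replicate 1. BC100530 was 249.0, 201 and 139 in controls and 474, 293 and 226 in mutants. Gm5483 was 135, 98.4 and 71.4 in controls and 254, 136 and 98.3 in mutants. Mutant replicate 1 was the highest lung of the table for every member. No member was called by any of the 3 tools and none had an unadjusted p under 0.05. Of all genes limma called 0.00582% higher and DESeq2 called 567 higher, and 1744 of 17182 had an unadjusted p under 0.05 by limma. The share of genes with all mutants above all controls was 15.5%. Stfa2l1 had a log2 fold change of -0.0026 when mutant replicate 1 was left out.

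Stfa1 differed from the other members in where it was found. In the Vangl2 P2 table it was abundant in every lung, at 865, 258 and 345 normalized counts in controls and 498, 687 and 1132 in mutants (log2 fold change 0.78 ± 0.46, SE). In the Vangl2 P5 table it was 3.65, 5.88 and 119 in controls and 18.3, 16.8 and 484 in mutants, so that replicate 3 of both genotypes stood apart from the other 4 lungs. Its log2 fold change there was 1.81 ± 1.54, and the SE was 0.33 with the replicate number as a block. In the Ror2 tables it was 1.03 to 14 at P2 and 0 to 4.23 at P5, where a count of 0 was found in 3 lungs and the gene did not pass the filter on low values.

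The gene whose deviations from the group means were most like those of Stfa1 was 2010005H15Rik, its neighbour in the cluster (RefSeq Csta2), with Pearson r = 0.91 over 23 lungs, among 14372 other genes with a mean of at least 20 normalized counts. It was chosen after its values were seen. Its levels were 47.4 to 115 in Vangl2 P2 controls, 186 to 255 in Vangl2 P2 mutants, and 19.1 and 125 in replicate 3 of the Vangl2 P5 controls and mutants. In all remaining lungs it was at most 2.79. Coding sequences of Stfa1 and 2010005H15Rik were 80.3% identical, while 2010005H15Rik and Gm5483 were 96.9% identical, so the pair is not the closest in sequence. Macrod1 and Zmynd15 followed, each with r = 0.90.

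The share of each member in the stefin A sum does not depend on the size factor and can be read across tables. Over the 24 lungs Stfa2 made up 12.0% to 24.9% (median 21.6%), Stfa2l1 18.2% to 27.4% (23.6%) and Gm5483 12.5% to 19.6% (15.4%). Stfa3 made up 5.83% to 16.5% (9.39%) and BC100530 14.2% to 34.4% (27.9%). Stfa1 was 12.7% to 27.4% of the sum in the Vangl2 P2 lungs, 11.6% and 7.76% in replicate 3 of the Vangl2 P5 controls and mutants, and at most 0.792% elsewhere.

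BC100530, the near-copy of Stfa1, had its lowest share (14.2%) in Vangl2 P5 control replicate 3, and the next 2 were 15.4% in Vangl2 P2 mutant replicate 1 and 15.8% in Vangl2 P5 mutant replicate 3. Stfa1 and BC100530 together were 20.6% to 29.6% of the sum in Vangl2 P5, 26.9% to 34.5% in Ror2 P2 and 27.4% to 34.4% in Ror2 P5. In Vangl2 P2 they were 31.9% to 45.6%. Replicate 3 of the Vangl2 P5 lungs thus lay within the range of their table once the pair was added.

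**Figure D3:**
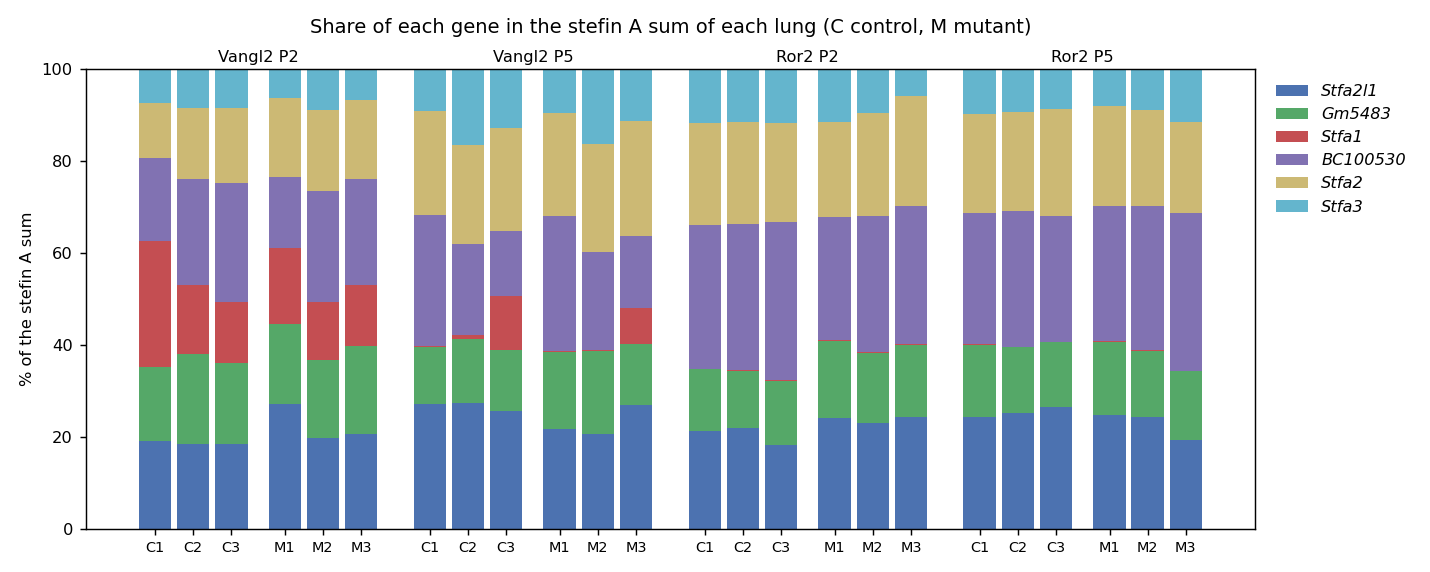
Stacked bars giving the share (%) of each stefin A gene in the stefin A sum of each of the 24 lungs, with C for control and M for mutant and the replicate number on the x axis. Stfa1 is a visible part of all 6 Vangl2 P2 bars and of C3 and M3 of Vangl2 P5 (11.6% and 7.76%), and the other 5 genes hold between 5.83% and 34.4% each in every bar.

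Levels were compared between members per kilobase of the GENCODE transcript. Those lengths were 617 bases for Stfa1, 619 for BC100530, 471 for Stfa2 and 412 to 419 for the others. RefSeq starts Stfa1, BC100530 and Stfa2 further in, and the order with RefSeq lengths was not tested. In 3 tables Stfa2l1 ranked first, with a mean over 6 lungs of 2008 normalized counts per kilobase in Vangl2 P2, 1759 in Vangl2 P5 and 506 in Ror2 P5. In Ror2 P2 BC100530 had the highest mean, 1747 per kilobase, but it was above Stfa2l1 (1679 per kilobase) in 1 of 6 lungs only. The ranges of neighbours in the order overlapped, apart from that of Stfa1 in the Ror2 tables. Stfa2l1 was above the next gene in 5 of 6 lungs in each of the 3 tables where it came first. Stfa3 came last in Vangl2 P2, at 742 normalized counts per kilobase and below Stfa1 in 5 of 6 lungs, and next to last in the other 3 tables, at 890 in Vangl2 P5, 866 in Ror2 P2 and 194 in Ror2 P5, with Stfa1 last. Gm5483 was above Stfa3 in 6 of 6 lungs in both Ror2 tables.

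The 6 members are not the whole array. Of the other 4 genes of the cluster in the tables, Csta was at most 1.13 normalized counts in any lung. Gm5416, a paralog between Gm5483 and Stfa1, was 21.0, 15.3 and 9.07 in Vangl2 P5 controls and 177, 73.9 and 70.6 in mutants, and the log2 fold change was 2.68 ± 0.47 (limma, adjusted p = 0.0575, and 0.00967 with the block). BC117090 was 20.1, 25.9 and 23.2 in these controls and 13.7, 265 and 99.2 in mutants, which overlapped. In Vangl2 P2 2010005H15Rik, whose levels are given above, had a log2 fold change of 1.45 ± 0.32 (limma, adjusted p = 0.0539, and 0.0473 with the block). None of the 4 passed an adjusted p of 0.05 by limma without the block in any table. An unadjusted p under 0.05 was found for 2 of the 3 tested in Vangl2 P2, 1 of 3 in Vangl2 P5 and none of 2 in either Ror2 table. With edgeR none passed, and with DESeq2 1 passed in Vangl2 P2 and 2 in Vangl2 P5.

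The 3 genes on each side of the array were not called in any table. On the near side of Stfa2l1, Wdr5b, Fam162a and Ccdc58, a mitochondrial assembly factor, had log2 fold changes in Vangl2 P5 of -0.09 ± 0.19, 0.35 ± 0.19 and 0.04 ± 0.18 (SE). Beyond Stfa3, Casr, the calcium-sensing receptor, Cd86, a costimulatory ligand of myeloid cells, and Ildr1 had -0.15 ± 1.04, 0.66 ± 0.29 and 0.45 ± 0.18. Casr was at most 17.9 normalized counts in any lung.

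**Figure D4:**
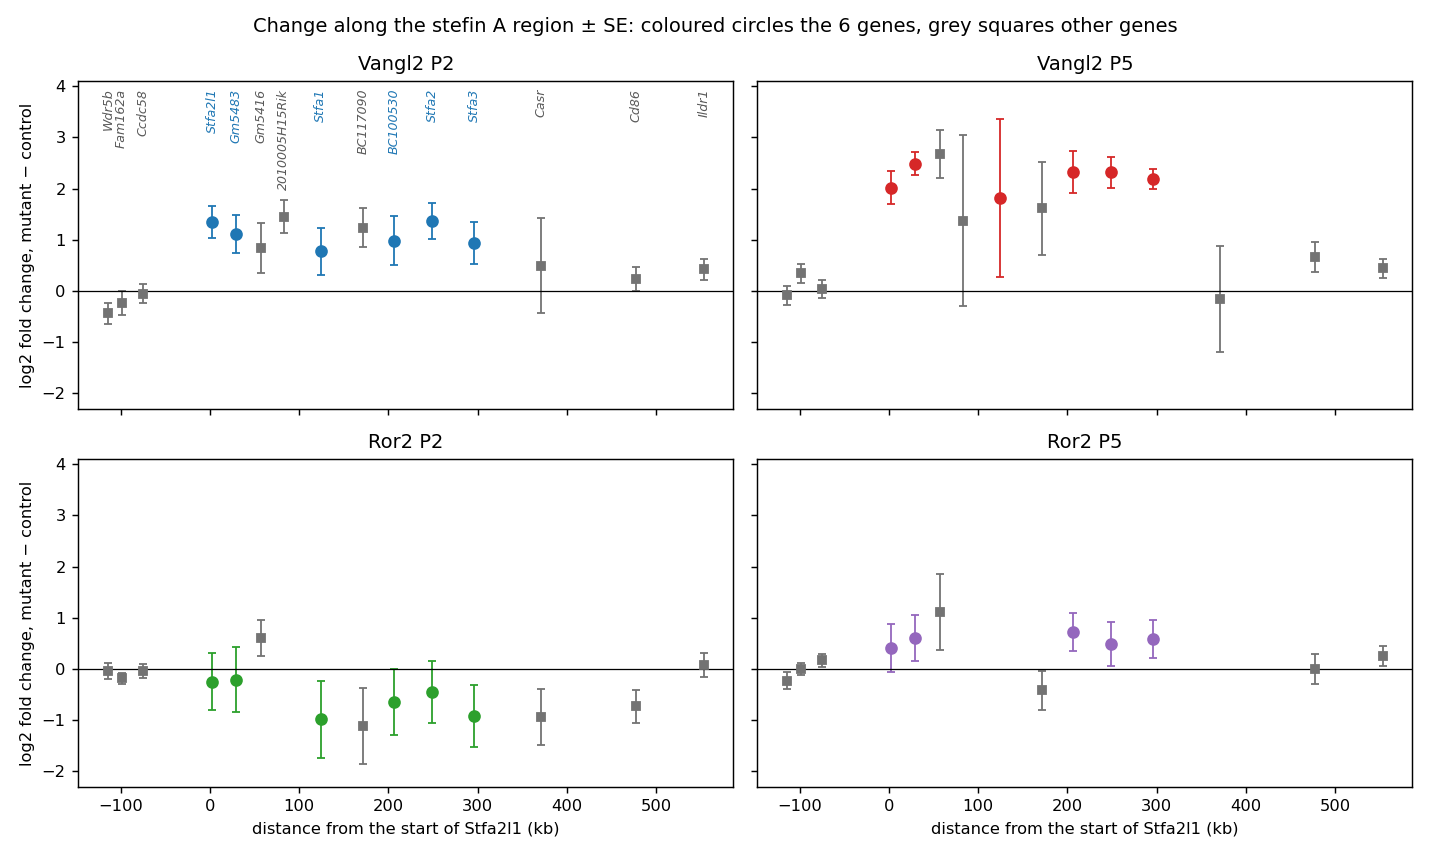
Log2 fold change of mutant minus control ± SE (limma, y axis) against the distance of each gene from the start of Stfa2l1 in kilobases (x axis), in 1 panel per table. Coloured circles are the 6 stefin A genes and grey squares other genes of the region, named in the first panel; in Vangl2 P5 the 6 circles lie at 1.81 to 2.49 and the 6 flanking genes at -0.15 to 0.66.

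Stefin A transcripts are known from neutrophils, so their levels were set beside a list of 17 neutrophil genes in the tables that holds no member. At P2 11 of the 17 rose in the Vangl2 mutants and none fell (limma, adjusted p under 0.05), and at P5 7 rose and none fell, beside 1.5% and 0.534% of all genes called higher. The median log2 fold changes of the list were 1.43 and 1.92, beside 0.00 over all genes tested in both tables. S100a8, a calcium-binding alarmin subunit abundant in neutrophils, was 904, 546 and 850 normalized counts in P2 controls and 1818, 1812 and 2923 in mutants, and the log2 fold change was 1.51 ± 0.25 (limma, adjusted p = 0.0319). At P5 it was 909, 581 and 650 in controls and 2003, 3345 and 4788 in mutants (2.18 ± 0.31, adjusted p = 0.0316).

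The genes of the list with the largest called changes at P2 were Il1r2, a decoy receptor for interleukin-1 (3.24 ± 0.44), Cd177, a neutrophil surface glycoprotein (1.88 ± 0.37), Clec4d, a C-type lectin (1.77 ± 0.30), and Mmp8, neutrophil collagenase (1.64 ± 0.28). At P5 they were Clec4d (3.29 ± 0.49), Retnlg (2.68 ± 0.33), Cd177 (2.43 ± 0.36) and Fpr2, a formyl peptide receptor (2.38 ± 0.24). All these changes were rises in the mutants. With the replicate number as a block 16 of the 17 genes rose at P5, beside 952 of the 17410 genes tested. Both counts rested on single lungs. Without control replicate 2, control replicate 3 or mutant replicate 2 no gene of the list was called at P2, and without control replicate 1 there was 1. At P5 none was called without control replicate 2 or mutant replicate 3, and 2 or 3 without any other lung.

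No gene of the neutrophil list was called in either Ror2 table by limma, edgeR or DESeq2, with 1 unadjusted p under 0.05 at P2 and none at P5. The list's summed level was 6500, 9235 and 33558 normalized counts in the Ror2 P2 controls and 8255 to 10834 in the mutants. Control replicate 3, the lung with the highest stefin A sum, thus also had the highest neutrophil level. In Ror2 P5 control replicate 1 there were 6 genes of the list at 0 (Ngp, Camp, Ltf, Mmp8, Cd177 and Clec4d), and in the other 23 lungs none was at 0. In the Vangl2 tables the summed list was 4567 to 6971 in controls and 13815 to 17543 in mutants at P2, and 4338 to 6092 and 13556 to 28718 at P5. The part of a neutrophil share in the stefin A difference was not tested.

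The ratio of the stefin A sum to S100a8 within a lung also does not depend on the size factor. It was 1.64, 1.28 and 1.58 in the Vangl2 P5 controls and 2.41, 1.18 and 1.30 in the mutants, overlapping between genotypes although both numerator and denominator did not. In Ror2 P2 it was 1.77, 2.00 and 1.49 in controls and 1.9, 2.04 and 1.99 in mutants, so the lung with 9430 stefin A counts had the lowest ratio of its table. In Ror2 P5 it ran from 1.59 to 1.79. In Vangl2 P2 it was 3.50, 3.15 and 3.07 in controls and 1.66, 2.99 and 2.92 in mutants. With Stfa1 left out of the sum it was 2.54 to 2.68 in these controls and 1.39 to 2.61 in the mutants, with the lowest value in mutant replicate 1.

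Differences between lungs of the same group do not use the contrast by which the members were chosen. Over 23 lungs (Ror2 P5 control replicate 1 was left out), the deviation of the stefin A sum from its group mean and that of the neutrophil list correlated with Pearson r = 0.92 and Spearman rho = 0.85, given as a description. Without the 2 lungs farthest from the median of the list r was 0.83. The lungs of a table share their normalization. Within tables r was 0.69 in Vangl2 P2 and 0.86 in Vangl2 P5 (6 lungs each), 0.996 in Ror2 P2 (6 lungs) and 0.98 in Ror2 P5 (5 lungs). The same r was 0.72 for the macrophage list, 0.69 for papain-like cathepsins, 0.62 for the lung identity list and 0.42 for the squamous list. It was 0.39 for the neutrophil precursor list, 0.37 for the mast cell and basophil list and 0.32 for other cystatins.

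Among members, the 10 pairs that leave out Stfa1 had r of 0.82 to 0.98 (median 0.92), and the 5 pairs with Stfa1 0.20 to 0.57. Stfa1 with BC100530, the closest pair in sequence, had the lowest value. With the neutrophil list r was 0.93 for Stfa2l1, 0.92 for Stfa2, 0.90 for Gm5483, 0.82 for BC100530, 0.81 for Stfa3 and 0.45 for Stfa1. The highest r of Stfa1 with a list was 0.78, with the other cystatins (0.09 to 0.36 for the other members), followed by 0.70 with the squamous list (0.17 to 0.57). Stfa1 was at most 14 normalized counts in the Ror2 lungs. In Vangl2 P5 its control replicate 3 (119) and mutant replicate 3 (484) stood far above the rest. No r of Stfa1 was computed without these lungs, so its values may rest on few of the 23.

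**Figure D5:**
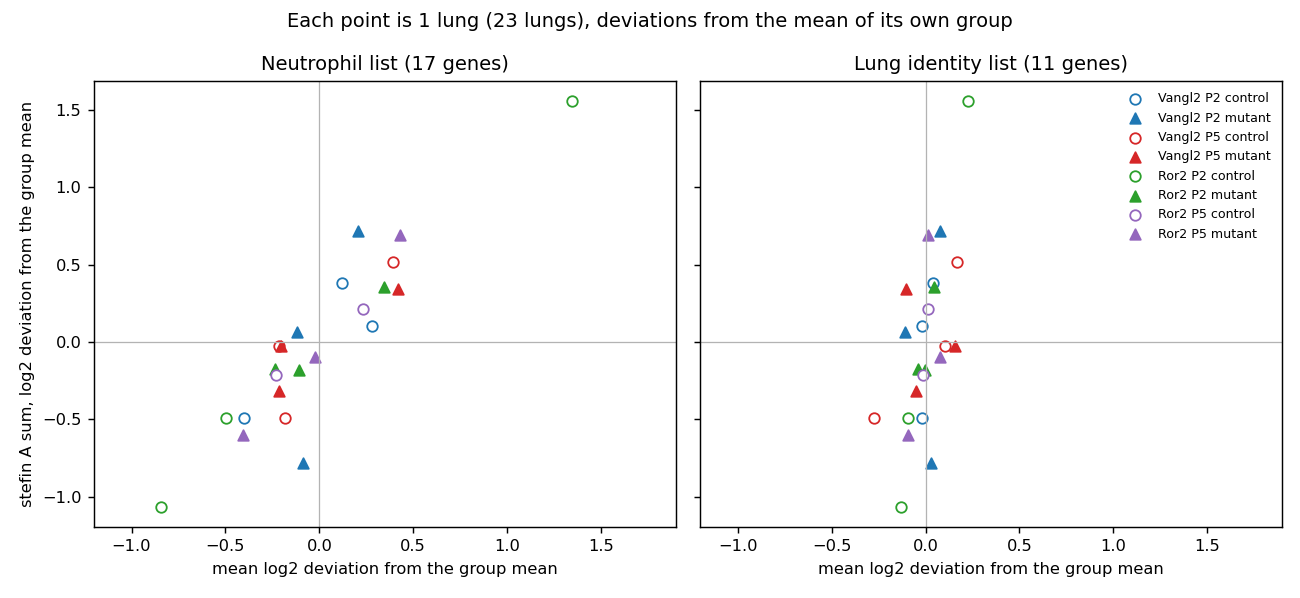
The log2 deviation of the stefin A sum from its group mean (y axis) against the mean log2 deviation of the neutrophil list (left) and of the lung identity list (right), 1 point per lung, 23 lungs. Open circles are controls, filled triangles mutants and colours the tables; r is 0.92 on the left and 0.62 on the right, where the deviations of the list are small.

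Of the 15 genes whose deviations were most like those of the stefin A sum, among 14373 with a mean of at least 20 normalized counts, 5 were members, which are part of the sum (Stfa2, Gm5483, Stfa2l1, BC100530 and Stfa3, r = 0.89 to 0.99). The other 10 were Mmp9, gelatinase B (0.94), Ifitm6 (0.94), Tyrobp, a signalling adaptor of myeloid receptors (0.93), S100a8 (0.91) and Cxcr2, the chemokine receptor that draws neutrophils to tissue (0.90). They were followed by Naprt1 (0.87), Alox5ap, which is needed for leukotriene synthesis (0.87), Cyth4 (0.86), Lilrb3, an inhibitory leukocyte receptor (0.85), and S100a9, the partner of S100a8 (0.85). Of these 10, S100a8, S100a9, Cxcr2, Alox5ap, Ifitm6 and Tyrobp also rose in the Vangl2 P5 mutants (limma, adjusted p = 0.0202 to 0.0422). Mmp9 was 322, 192 and 199 normalized counts in these controls and 525, 475 and 881 in mutants, with an adjusted p of 0.0823 by limma and 0.0278 with the block.

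Other cystatins were measured beside the stefins. Cstb, the stefin B gene, was 802, 691 and 900 normalized counts in Vangl2 P5 controls and 1459.9, 968 and 1700.5 in mutants, with a log2 fold change of 0.76 ± 0.22 (limma, adjusted p = 0.135, and 0.0201 with the block). In Vangl2 P2 its log2 fold change was 0.06 ± 0.18. Cst3, the secreted cystatin C, was 3294 to 4082 in P5 controls and 4109.8 to 5465 in mutants, with a log2 fold change of 0.32 ± 0.16 (adjusted p = 0.327). Of the 16 other cystatin genes in the tables, 11 were tested in Vangl2 P2 and 1 rose. It was Kng2, a kininogen, at 14.7, 9.48 and 4.79 in controls and 133, 90.5 and 32.6 in mutants (2.92 ± 0.58, adjusted p = 0.0403). In Vangl2 P5 none of 10 passed, with 3 at an unadjusted p under 0.05, none by edgeR, 2 by DESeq2 and 3 with the block. None passed by limma in the Ror2 tables, where 3 of 11 at P2 and 1 of 8 at P5 had an unadjusted p under 0.05, edgeR gave none and DESeq2 none and 1.

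The papain-like cathepsins are the proteases that stefins bind. All 10 were tested in every table, 2 rose in Vangl2 P2, 1 rose in Vangl2 P5 and none fell. Ctsh, an aminopeptidase of type II alveolar cells, was 7775, 6968 and 6746 normalized counts in P2 controls and 19165, 15958 and 11990 in mutants (1.11 ± 0.17, limma, adjusted p = 0.0301). Ctsl, a broadly expressed endopeptidase, was 2600.5, 2796 and 3049.6 in P2 controls and 5022, 4141 and 3752 in mutants (0.60 ± 0.13, adjusted p = 0.0457, and 0.071 with the block). Both were highest in mutant replicate 1, the Vangl2 P2 mutant lung with the lowest stefin A sum.

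At P5 Ctss, the cathepsin of antigen-presenting cells, was 1050.1, 956 and 829 in controls and 2540.4, 2302 and 2929 in mutants (1.45 ± 0.15, adjusted p = 0.0141). The 6 stefin A genes had log2 fold changes of 1.81 to 2.49 in the same table, with an SE of 1.54 for Stfa1. They were chosen on this contrast, so their place above Ctss says nothing further. Ctsb, an abundant lysosomal endopeptidase, was 9236 to 9968 in controls and 10631 to 12246 in mutants (0.26 ± 0.15, adjusted p = 0.407). Ctsh at P5 was 0.75 ± 0.24 (adjusted p = 0.161) and Ctsl 0.60 ± 0.31 (adjusted p = 0.345). The median over the 10 cathepsins was 0.39 in Vangl2 P2 and 0.48 in Vangl2 P5. In the Ror2 tables none passed by limma or edgeR, DESeq2 gave 1 in each, and 1 in each had an unadjusted p under 0.05. Ctsh and Ctsc were at 0 in Ror2 P5 control replicate 1, the lung that lacks whole chromosomes.

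Levels of other cell types were checked by lists of their markers. Of 12 macrophage genes 1 rose in Vangl2 P2 (C1qa, a complement subunit, 0.59 ± 0.13, limma, adjusted p = 0.0498, and 0.0702 with the block), where 7 had an unadjusted p under 0.05, edgeR gave none and DESeq2 7. None rose in Vangl2 P5, where 10 had an unadjusted p under 0.05, edgeR gave none, DESeq2 7 and the block 6. Their summed level was 5665 to 6315 normalized counts in P2 controls and 7600 to 9791 in mutants, and 4607 to 5755 and 8342 to 9294 at P5. The lungs of the 2 genotypes did not overlap in either table. Of 7 neutrophil precursor genes, Mpo, myeloperoxidase, rose at P2, from 8.43, 2.85 and 3.83 in controls to 69.3, 67.9 and 16.3 in mutants (2.97 ± 0.63, adjusted p = 0.047). The precursor genes summed to 16.9 to 197 in any lung, far below the mature neutrophil list, and Elane, Ctsg, Fcnb and Ms4a3 were at 0 in some lungs.

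Of 20 squamous epithelium genes, 15 were tested in each Vangl2 table. Sprr1a, a cornified envelope precursor, rose at P2 (1.9 to 5.27 in controls and 11.8 to 42.4 in mutants, adjusted p = 0.0413), and none passed at P5, where 8 had an unadjusted p under 0.05, edgeR gave none, DESeq2 4 and the block 4. Ppl, a plakin of the cornified envelope, was 552 to 611 in P5 controls and 791 to 1057 in mutants (0.69 ± 0.15, limma, adjusted p = 0.0881, and 0.0248 with the block). The list summed to 1638 to 1925 in P2 controls and 2817 to 5637 in mutants, and to 1276 to 1371 and 1782 to 3269 at P5. Krt5, Krt6a, Krt6b, Sprr1b, Sprr3 and Cnfn were at 0 in some lungs of every table. No mast cell or basophil gene of 8 passed in any table by limma, edgeR or DESeq2, with 1 unadjusted p under 0.05 in Vangl2 P5 and 1 in Ror2 P2. The tissue label was borne out by Sftpc, surfactant protein C, at 91779 to 311502 normalized counts in every lung. Of 11 lung identity genes, Sftpd and Hopx rose and Col1a1 fell in Vangl2 P2, and none passed by limma in the other 3 tables, where 7, 4 and 4 had an unadjusted p under 0.05, edgeR gave none, DESeq2 6, 1 and 3, and the block 4 in Vangl2 P5. In the Ror2 tables no macrophage, precursor or squamous gene passed by limma or edgeR, and DESeq2 gave 1 macrophage gene at P2 and 2 squamous genes at P5. The part of these cell types in the stefin A difference was not tested.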

How the data were processed

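The authors extracted left lung lobe RNA (TRIzol, then RNeasy columns) for HiSeq sequencing. Per the labels the build is mm10 and the tool DESeq2; the aligner, counter and annotation are not given in the sources used here. The deposited signal values are reads that the authors counted per gene and then scaled by 1 size factor for each lung, set within a table of 6 lungs, so levels are compared within a table only. The authors' columns of fold changes and p-values were not used. The lungs were grouped by title; genotype entries that name the other gene (mutants of Vangl2 P5 and Ror2 P2) were not followed.

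The members and lists were chosen with earlier results of these data known. Normalized counts were tested as log2(value + 1), for genes at 1 or more in at least 3 of 6 lungs, with limma 3.58.1 (lmFit, eBayes with trend, two-sided, Benjamini-Hochberg over all genes tested). A fold change on that scale understates the change of low genes. Genes named beyond the members follow a rule: cystatins and cathepsins past the threshold and 6 named ones, the 4 largest called changes of each other list (or its 2 most abundant genes where none was called, not all printed), 3 flanking genes per side, the targeted genes and the 15 genes most like the stefin A sum. Whole reads were recovered in all 24 lungs (100% of values within 0.02 of a whole number of reads) and tested with edgeR 4.0.16 and DESeq2 1.42.0 as alternatives. As a check of the code, the fit was run on counts simulated from the means of the Vangl2 P2 controls. The simulation used the same dispersion for all genes, so it does not vouch for the fit at the spread of these lungs. Other alternatives were pseudocounts of 0.5 and 4, other filters, rescaled lungs, a replicate block and each lung left out. In Vangl2 P5 alone every same-numbered pair of lungs deviated together (r = 0.384, 0.34 and 0.241, each over 0.1). In Ror2 P2 replicates 2 and 3 were also over 0.1 (0.206 and 0.119). No label names a pairing, litter or batch. The pairing was thus read from these same values, and results with the block rest on it. Sequences are from GENCODE vM21 and RefSeq; protein sequences were not used here.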

Additional observations from a re-analysis of the deposited data

How the results depend on the processing

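Of 164 alternatives to 13 results, 117 left the value within a set limit. The limit was 1.5 times for counts, the spread between lungs for differences and the standard error of r for the likeness. Counts of 0 that stayed at 0 are among the 117, as for the neutrophil list in both Ror2 tables. The stefin A log2 differences kept their direction under every alternative in Vangl2 P2 (0.74 to 1.49 when single lungs were left out), Vangl2 P5 (1.99 to 2.49) and Ror2 P5 (0.23 to 0.87). In Ror2 P2 the range was -1.01 to 0.30, and the direction reversed (0.30) without control replicate 3. A sum without Stfa1, added after the data were seen, changed no direction. The likeness of the sum to the neutrophil list was 0.92, 0.85 as Spearman rho, 0.83 without the 2 farthest lungs, and 0.57 over all 24 lungs, where 6 list genes were at 0 in 1 lung.

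Counts of called genes moved most. DESeq2 on recovered reads called 2001 genes in Vangl2 P2, 1273 in Vangl2 P5, 803 in Ror2 P2 and 973 in Ror2 P5, against 626, 98, 0 and 1 by limma (unadjusted p under 0.05: 3921, 3270, 3380 and 1744) and 641, 69, 0 and 0 by edgeR. The replicate block called 795, 1558, 1 and 0. Rescaled lungs gave 193 genes in Vangl2 P5 and 0 in Ror2 P5, where no filter also gave 0. Leaving out single lungs gave 1 to 2333, 0 to 54, 0 to 859 and 0 to 6 genes. For the neutrophil list, leaving out single lungs gave 0 to 11 genes in Vangl2 P2 and 0 to 3 in Vangl2 P5, where rescaled lungs gave 11 and both the block and DESeq2 gave 16. In Vangl2 P5 the block also called 6 macrophage, 4 squamous, 4 lung identity and 3 cystatin genes, none of which limma called without it. The causes were not tested, beyond the smaller groups that leaving out a lung makes. In Vangl2 P2 and both Ror2 tables not every same-numbered pair deviated together (r = -0.0525 to 0.206).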
